A study of Mus musculus with 13 samples.

Results

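Iron handling in damaged hepatocytes was followed through 9 genes, chosen by symbol from the 27141 genes of the count and FPKM tables. They were Hamp, Bmp6, Trf, Tfrc, Tfr2, Fth1, Ftl1, Slc40a1 and Cp, and all 9 passed the filter on low counts that left 19884 genes for testing. Damaged hepatocytes (dHeps) are liver parenchymal cells taken from wild-type mice whose livers had been injured by carbon tetrachloride (CCl4). They were isolated by collagenase perfusion, without a sort that would remove other liver cells, and all groups were kept for 16 days in a serum-free hepatocyte maintenance medium. The DMSO group received the solvent. The 5C group received 5 compounds. They were GSK429286A (G) against ROCK, CID755673 (C) against protein kinase D, the AMPK activator ETC-1002 (E), the glycoside Salidroside (S), and forskolin (F), which raises cAMP. The groups 5C-G, 5C-C, 5C-E, 5C-F and 5C-S received the cocktail without the compound named by the letter. There were 2 libraries in each group except 5C-S, which had 1 and is described without a test. The libraries of a group are called A and B, and no letter pairs libraries between groups. The methods describe replicates as biologically separate in general. The labels do not say whether the libraries of a group came from different animals or only from different cultures of 1 isolation. The p-values therefore rest on the spread between these libraries, which the model pooled over all groups for each gene. The pairs were not equally close. The chi-square per degree of freedom between the libraries of a group was 8.01 in DMSO and 14.1 in 5C. It was 28.9 in 5C-E, 62.9 in 5C-F, 75.7 in 5C-C and 86.6 in 5C-G.

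The liver both stores iron and sets how much iron enters the blood. Hepatocytes secrete hepcidin, the hormone encoded by Hamp, which makes cells withdraw the iron exporter ferroportin from their surface, and they raise Hamp through a receptor pathway that is driven by bone morphogenetic proteins such as BMP6 and runs through SMAD factors, and through STAT3 in inflammation. Iron travels on transferrin, enters cells through transferrin receptor 1, and is held inside ferritin, a shell built of heavy and light chains. Cells with little iron let iron regulatory proteins bind a hairpin in certain mRNAs, the iron-responsive element. Binding ahead of the coding sequence blocks translation, while binding behind it protects the mRNA from decay, so that at such genes the mRNA level and the protein level can part.

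The matches to the hairpin are shown because they mark which of the 9 mRNAs carry its pattern and at which end. A search of the canonical GENCODE transcripts for the loop letters CAGTGN, with 5 bases on either side that can pair (G with T included) and a C just ahead of them, found a match in 4 of the genes. In each sequence, written 5′ to 3′, the capitals mark the loop. Fth1, Ftl1 and Slc40a1 each held 1 match in the 5′ UTR.
Fth1: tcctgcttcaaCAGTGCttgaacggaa
Ftl1: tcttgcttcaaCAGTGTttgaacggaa
Slc40a1: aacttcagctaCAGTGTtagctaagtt
These windows lie on GRCm39 at chr19:9960097-9960123 on the plus strand, chr7:45109204-45109230 on the minus strand and chr1:45964626-45964652 on the minus strand. Tfrc held 4 matches, all in the 3′ UTR on the plus strand, at chr16:32450038-32450064, chr16:32450417-32450443, chr16:32450482-32450508 and chr16:32450529-32450555.
Tfrc match 1: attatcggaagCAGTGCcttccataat
Tfrc match 2: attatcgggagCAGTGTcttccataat
Tfrc match 3: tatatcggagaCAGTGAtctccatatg
Tfrc match 4: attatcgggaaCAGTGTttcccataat
The same pattern occurred in 288 of 21593 canonical coding transcripts (1.33%). No match was found in Hamp, Bmp6, Tfr2, Trf or Cp, which says only that this pattern of loop and pairing bases is not in those transcripts.

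Total counts per library ran from 30195867 to 45491932, and the 9 genes took between 1.40% and 2.83% of them. The lowest count of any member in any library was 186, for Slc40a1. Levels are given as the authors' FPKM (fragments counted, scaled by the length of the gene and the total of the library). Fold changes are differences on the log2 scale from the counts, scaled by TMM and tested with edgeR's quasi-likelihood test, with p-values adjusted by Benjamini-Hochberg over all 19884 genes. A gene was called when its adjusted p was under 0.05 and its log2 fold change lay beyond 1 in either direction. In these unsorted cultures fewer cells of a type and less RNA per cell cannot be told apart. The summed FPKM of 10 hepatocyte markers, of which Alb alone made up 52.4% to 85.3%, ranged from 3244 to 3761 in 5C-E, 4869 to 5356 in 5C-C, 6500 to 7812 in 5C-G, 10722 to 11921 in DMSO, 11050 to 11137 in 5C and 17296 to 21726 in 5C-F, with no marker at 0. Without Alb, the sum over the other 9 ranged from 1042 to 1121 in 5C-E, 1625 to 1700 in 5C, 1923 to 2315 in 5C-C, 2118 to 2210 in DMSO, 2364 to 3330 in 5C-G and 3470 to 3955 in 5C-F. The place of 5C-C and 5C-G relative to 5C thus turned, and Apoa1 made up most of this sum on average in each of these groups. The same sum over 10 macrophage markers ranged from 272 to 290 in 5C, 394 to 501 in 5C-E, 648 to 1108 in 5C-C, 864 to 1126 in 5C-F, 2327 to 2352 in DMSO and 2789 to 4361 in 5C-G, again with no marker at 0.

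Trf was among the 10 highest genes of every library by FPKM and Fth1 among the 14 highest, while Slc40a1 never ranked above 10071. Ftl1 ranked between 43 and 188, Cp between 250 and 1405, and Hamp between 694 and 2859. The high level of Trf and Fth1 and the low level of Slc40a1 held in all 13 libraries. Cp varied most, by 4.75-fold between its lowest library (5C-G A) and its highest (5C-F A), followed by Slc40a1 at 4.53-fold and Hamp at 4.02-fold. Tfrc varied least, by 2.09-fold.

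**Figure D1:**
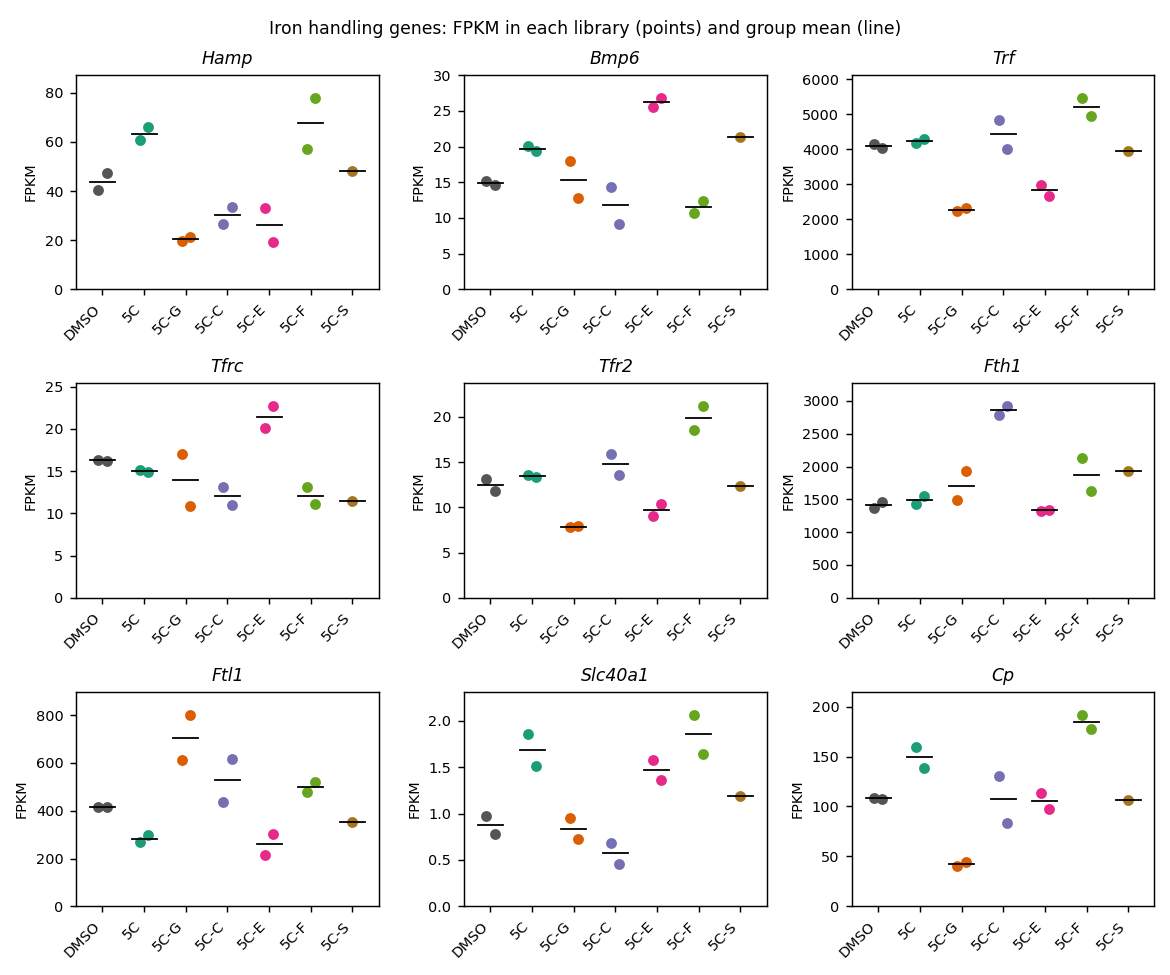
FPKM of the 9 genes in each library (points, 1 per library) with the mean of each group (line), by group on the horizontal axis and with every vertical axis starting at 0. Trf, Tfr2 and Cp were lowest in 5C-G, Fth1 was highest in both 5C-C libraries, and Ftl1 reached 802 FPKM in a 5C-G library.

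The full cocktail against the solvent showed no call among the 9 genes, and removing single compounds gave between 0 and 3. In 5C against DMSO, 0 members were called by edgeR and 0 by DESeq2, and 2 had an unadjusted p under 0.05 (Slc40a1 and Ftl1), while 4.55% of all genes were called. In 5C-G against 5C, 3 were called (Ftl1 higher, Hamp and Cp lower) against 13.1% of all genes. In 5C-C against 5C, 3 were called (Fth1 and Ftl1 higher, Slc40a1 lower) against 20.2% of all genes. In 5C-E against 5C, Hamp alone was called, lower, against 1.96% of all genes. In 5C-F against 5C, 0 were called by edgeR and 0 by DESeq2, with 6 at an unadjusted p under 0.05, against 4.84% of all genes.

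By adjusted p under 0.05 alone, with no fold threshold, the counts were 0 in 5C against DMSO (6.34% of all genes), and against 5C they were 6 in 5C-G (25.6%), 2 in 5C-E (2.94%), 5 in 5C-C (35.8%) and 3 in 5C-F (10.7%). The members' median log2 fold change was 0.04 in 5C against DMSO, and -0.64, -0.27, -0.15 and 0.40 for the removals in that order, beside medians over all genes between -0.01 and 0.01. The counts by adjusted p changed with the fit. Fitted on the DMSO and 5C libraries alone, 5 members had an adjusted p under 0.05 in 5C against DMSO (edgeR), which were Ftl1 at -0.63, Slc40a1 at 0.86, Hamp at 0.46, Cp at 0.39 and Bmp6 at 0.33. In that comparison DESeq2 gave 1, Slc40a1, at 0.85 (adjusted p = 0.0305). With every gene kept edgeR gave 1, Ftl1, at -0.62 (adjusted p = 0.0193). With the offset for GC content and length edgeR gave 1, Slc40a1, at 0.81 (adjusted p = 0.0354). With 1 library left out, the count against 5C was 0 or 1 in 5C-F and in 5C-E, 3 to 5 in 5C-C and 4 to 7 in 5C-G. In 5C-E it was 5 with only the 2 groups fitted, 4 with the offset for GC content and length, 3 with DESeq2 and 1 with limma on log2(FPKM + 0.1). Over the settings that kept all libraries it was 6 or 7 in 5C-G, 4 to 6 in 5C-C and 2 to 4 in 5C-F. The comparisons with 5C share the same pair of 5C libraries.

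**Figure D2:**
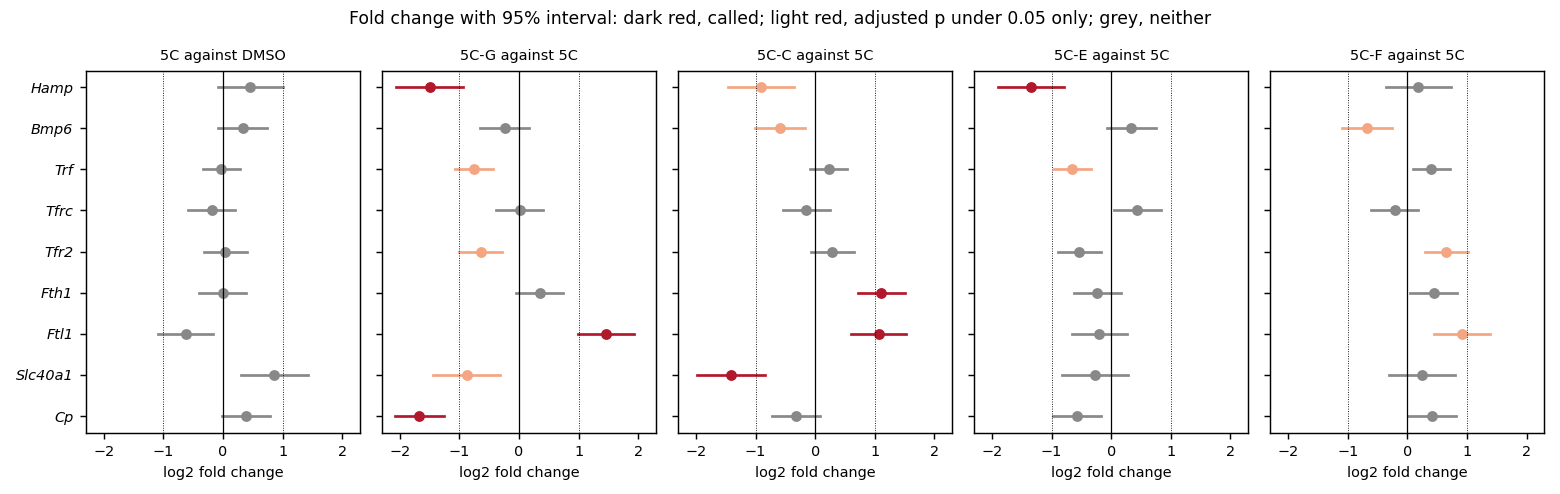
Log2 fold change of each gene (points) with its 95% interval (lines) in the 5 comparisons, with dotted lines at the fold threshold of 1. Dark red marks called genes, light red an adjusted p under 0.05 without the fold, and grey neither, so that no member is coloured in 5C against DMSO and 6 are in 5C-G against 5C.

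Hamp, which encodes hepcidin, was lowest where GSK429286A or ETC-1002 was left out. It lies at chr7:30641766-30643990 on the minus strand. Its FPKM was 40.5 and 47.2 in DMSO, 60.8 and 65.9 in 5C, 19.6 and 21.1 in 5C-G, 32.9 and 19.4 in 5C-E, 26.8 and 33.4 in 5C-C, and 56.9 and 78.1 in 5C-F. All libraries of 5C-G, 5C-C and 5C-E lay below both 5C libraries and both DMSO libraries. Against 5C, Hamp fell by 1.50 on the log2 scale in 5C-G (SE 0.27, adjusted p = 0.000712, edgeR) and by 1.35 in 5C-E (SE 0.26, adjusted p = 0.00764, edgeR). In 5C-C the difference was -0.90 (SE 0.26, adjusted p = 0.0119), short of the fold threshold. It was called there with an offset for GC content and gene length (-1.36), with scaling by library totals alone (-1.07), with limma on log2(FPKM + 1) (-1.06) or log2(FPKM + 0.1) (-1.08) and without 5C-C replicate B (-1.11), while without 5C replicate B (-0.80) or 5C-C replicate A (-0.71) the adjusted p was 0.0861 and 0.0827. In 5C-F the difference was 0.18, with a 95% interval from -0.36 to 0.73.

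The call in 5C-E rested on its individual libraries. Without 5C-E replicate B, the lower of the pair, the difference was -1.02 (adjusted p = 0.239), and without 5C replicate B it was -1.24 (adjusted p = 0.101). The call in 5C-G held with each library left out in turn. Against DMSO, 5C differed by 0.46 (95% interval from -0.09 to 1.00), and Hamp was called lower in 5C-G at -1.04 (adjusted p = 0.0175, edgeR), but not once any 1 of the 4 libraries was left out (-0.90 to -1.20, lowest adjusted p = 0.0498, where the fold was short). In the order of mean levels, 5C-F, 5C, DMSO, 5C-C, 5C-E and 5C-G, no neighbouring pair differed with an adjusted p under 0.05. The neighbouring copy Hamp2 had at most 1 count in any library, beside a lowest count of 258 for Hamp.

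Hepatocyte markers differed from 5C in the same groups. Of the 10, 4 were called lower and 0 higher in 5C-E, where all 10 values were negative, from -4.63 to -0.18 with a median of -1.20. In 5C-G, 5 were called lower and 2 higher, with a median of -1.02, and in 5C-C 4 lower and 1 higher, with a median of -0.81. Over all genes, the shares called were 1.96% in 5C-E, 13.1% in 5C-G, 20.2% in 5C-C and 4.84% in 5C-F. Without Alb, the sum was lower than in 5C in 5C-E and higher in 5C-G and 5C-C. Apoa1 carried most of that sum, at a mean of 893 FPKM in 5C, 2481 in 5C-G and 1541 in 5C-C. Ttr, Apob, Hnf4a, Tat and Cyp2e1 had lower means than in 5C in both 5C-G and 5C-C. Ttc36 was higher in both, and Fgb and Serpina1c were higher in 1 and lower in the other. The part of the hepatocyte markers in the level of Hamp was not tested. In 5C-F, where the marker sum was highest with and without Alb and 3 markers were called higher, Hamp lay between 56.9 and 78.1 FPKM and its libraries overlapped those of 5C.

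Bmp6, the ligand that drives Hamp and in the intact liver comes mainly from endothelial cells, did not follow Hamp. It lies at chr13:38529065-38684280 on the plus strand. Its FPKM was 15.2 and 14.6 in DMSO, 20.1 and 19.4 in 5C, 18.0 and 12.7 in 5C-G, 25.5 and 26.9 in 5C-E, 14.4 and 9.13 in 5C-C, and 10.7 and 12.4 in 5C-F. The highest pair was 5C-E, a group in which Hamp was low. Against 5C, Bmp6 was lower in 5C-F by 0.68 (SE 0.20, adjusted p = 0.0370) and in 5C-C by 0.59 (SE 0.20, adjusted p = 0.0265), both short of the fold threshold. In 5C-C it was -0.32 (adjusted p = 0.286) without replicate B of 5C-C and -0.90 (adjusted p = 0.00320) without replicate A, and without either 5C library the adjusted p was 0.112 and 0.119. In 5C-F the adjusted p ranged from 0.109 to 0.186 with 1 library left out. With the offset for GC content and length the difference in 5C-C was -1.12 and called. In 5C-E it was 0.34 against 5C (adjusted p = 0.460) and 0.67 against DMSO (adjusted p = 0.0420, edgeR). The liver endothelial markers had a sum of 12.8 to 14.2 FPKM in 5C, where Pecam1 and Cdh5 were listed at 0. The sum was 27.5 to 28.7 in 5C-E and 41.6 to 45.3 in 5C-G. In DMSO the sum was 78.3 to 89.8, of which Lyve1 made up 84.3% to 86.0%. Without Lyve1 the sum was 12.3 to 12.6 in DMSO and 9.77 to 11.3 in 5C. In 5C-E it was 22.2 to 23.4 and highest, as Bmp6 was. In 5C-G it was 3.53 to 6.28, while mean Bmp6 there (15.4 FPKM) was above that of DMSO (14.9 FPKM). In 5C-C it was 6.99 to 10.9 and in 5C-F 5.40 to 5.69. Kdr carried most of it in 5C-E with a mean of 22.1 FPKM, while Pecam1 and Cdh5 stayed below 1 FPKM on average in every group. The part of the endothelial markers in the level of Bmp6 was not tested. No neighbouring pair in the order of Bmp6 levels, 5C-E, 5C, 5C-G, DMSO, 5C-C and 5C-F, passed the adjusted p.

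Of the 16 genes that carry or restrain the BMP and SMAD signal to Hamp, 6 were called in 5C-C against 5C, where 20.2% of all genes were. Of these, 5 were lower and 1 higher, and the median over the whole list was -0.73 on the log2 scale beside 0.00 over all genes. The lower genes included Acvr2a at -1.71, Bmpr2 at -1.65 and Bmpr1a at -1.54, which encode activin and BMP receptors, and the higher was Atoh8, a SMAD target that acts on Hamp, at 1.44. In 5C-G against 5C, where 13.1% of all genes were called, Bmpr1a (-1.23), Bmpr2 (-1.20) and Acvr2a (-1.20) were called lower. Hfe, a partner of the transferrin receptors that takes part in iron sensing, was called higher there at 1.29. In 5C against DMSO (4.55% of all genes called), Hfe was called lower at -1.29 and Hjv, the BMP co-receptor hemojuvelin, higher at 1.03. In 5C-F against 5C (4.84% of all genes called), Acvr2a (-1.27) and Neo1 (-1.06), which binds hemojuvelin, were called lower. In 5C-E against 5C (1.96%) none was, the range being -0.91 to 0.86 and 1 gene having an adjusted p under 0.05.

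Of the 6 genes of the IL-6 and STAT3 route, Socs3, a STAT3 target that feeds back on the pathway, was called higher in 5C-C (1.71) and 5C-E (1.16) against 5C. Hamp was lower than in 5C in both groups. In 5C-C, Il6 was called higher at 1.76 and Il6ra, its receptor, lower at -1.17. Il6 was scarce, at a mean of 1.45 FPKM in 5C-C and 0.48 in 5C. It was called lower in 5C-F at -2.31, where its mean was 0.09 FPKM. None of the 6 was called in 5C against DMSO (-0.76 to 0.73) or in 5C-G against 5C (-0.42 to 0.57). The shares of all genes called against 5C were 20.2% in 5C-C, 1.96% in 5C-E, 4.84% in 5C-F and 13.1% in 5C-G. In 5C against DMSO the share was 4.55%.

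Trf, which encodes the plasma carrier transferrin and is made mostly by hepatocytes, was lowest without GSK429286A and next lowest without ETC-1002. It lies at chr9:103081200-103107814 on the minus strand. Its FPKM was 4147 and 4049 in DMSO, 4169 and 4302 in 5C, 2227 and 2328 in 5C-G, 2992 and 2661 in 5C-E, 4834 and 4017 in 5C-C, and 5477 and 4950 in 5C-F. The libraries of 5C-G and 5C-E lay below those of every other group. Against 5C the difference was -0.76 in 5C-G (SE 0.15, adjusted p = 0.00145) and -0.65 in 5C-E (SE 0.15, adjusted p = 0.0207), neither past the fold threshold. With 1 library left out, the adjusted p in 5C-E ranged from 0.0718 to 0.361. The same pair of groups lay below DMSO by 0.78 (adjusted p = 0.00465, edgeR) and 0.68 (adjusted p = 0.00562, edgeR). DMSO and 5C differed by -0.03, with a 95% interval from -0.34 to 0.28. In the order of levels, 5C-F, 5C-C, 5C, DMSO, 5C-E and 5C-G, the step from DMSO to 5C-E was the 1 that passed the adjusted p.

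Tfr2, a receptor that senses iron-loaded transferrin in hepatocytes and helps raise Hamp, followed a similar order at a much lower level. It lies at chr5:137568087-137586343 on the plus strand. Its FPKM was 13.1 and 11.8 in DMSO, 13.6 and 13.4 in 5C, 7.79 and 7.90 in 5C-G, 9.09 and 10.4 in 5C-E, 15.9 and 13.6 in 5C-C, and 18.5 and 21.2 in 5C-F. Both 5C-G libraries were the lowest of the series and both 5C-F libraries the highest. Against 5C the difference was -0.64 in 5C-G (SE 0.17, adjusted p = 0.0107) and 0.65 in 5C-F (SE 0.17, adjusted p = 0.0232), and against DMSO it was -0.61 and 0.69 (adjusted p = 0.0276 and 0.0118, edgeR), all short of the fold threshold. Against 5C, the adjusted p in 5C-G was 0.0699 and 0.0527 without replicate A and B of 5C, and in 5C-F it ranged from 0.0454 to 0.162 with 1 library left out and was 0.0562 with library totals alone. In 5C-E against 5C it was -0.54 (adjusted p = 0.115). No neighbours in its order, 5C-F, 5C-C, 5C, DMSO, 5C-E and 5C-G, differed with an adjusted p under 0.05. Across the 13 libraries the log2 CPM of Tfr2 and Trf had a Pearson r of 0.94, the highest of any pair of members, as a description of libraries that share their groups and their spread.

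Tfrc, the receptor that brings iron-loaded transferrin into cells and the member with 4 matches to the hairpin pattern behind its coding sequence, gave no call. It lies at chr16:32427556-32451612 on the plus strand. Its FPKM was 16.4 and 16.2 in DMSO, 15.2 and 14.9 in 5C, 17.1 and 10.9 in 5C-G, 20.1 and 22.7 in 5C-E, 13.2 and 11.0 in 5C-C, and 13.1 and 11.1 in 5C-F. The pair of 5C-E libraries was the highest of the series. The largest difference from 5C was 0.44 in 5C-E (SE 0.19, adjusted p = 0.275). In 5C-G against 5C the estimate was 0.01, with a 95% interval from -0.38 to 0.41, and its sign turned with scaling by library totals alone. With the offset for GC content and length, for a gene whose transcripts have a median of 39.7% GC, the difference from 5C was 0.88 in 5C-C (adjusted p = 0.000503) instead of -0.15, 0.72 in 5C-G (adjusted p = 0.00272) instead of 0.01, and 0.71 in 5C-E (adjusted p = 0.0124) instead of 0.44. No neighbours in the order 5C-E, DMSO, 5C, 5C-G, 5C-F and 5C-C passed the adjusted p.

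**Figure D3:**
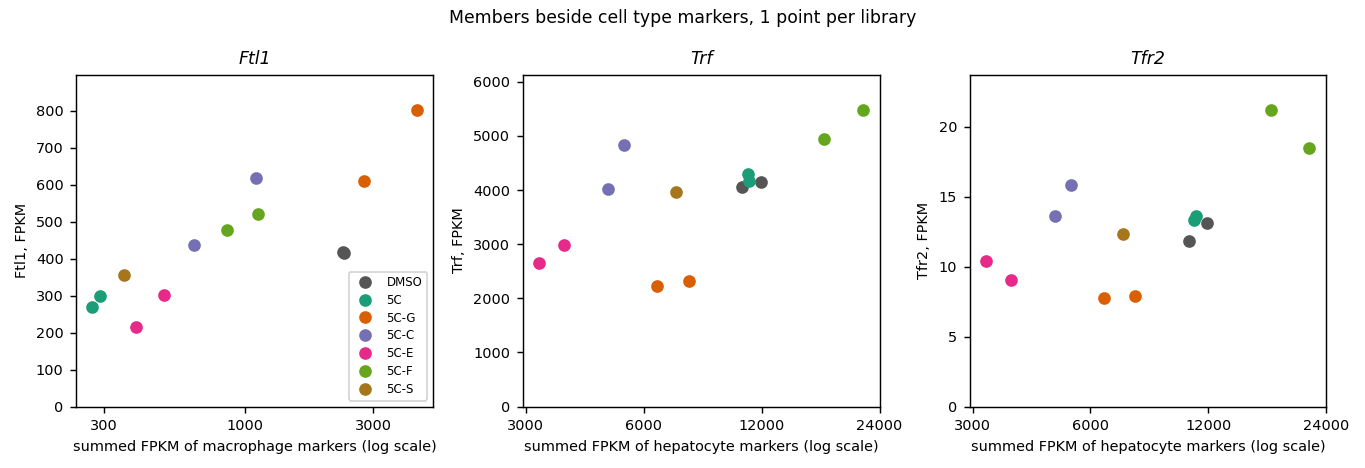
FPKM of Ftl1 against the summed FPKM of 10 macrophage markers, and of Trf and Tfr2 against that of 10 hepatocyte markers, with 1 point per library coloured by group and a log scale on each horizontal axis. Ftl1 was 802 FPKM at a macrophage sum of 4361 (5C-G) and 416 to 418 FPKM at sums of 2327 to 2352 (DMSO), Trf was 4017 to 4834 FPKM at hepatocyte sums of 4869 to 5356 (5C-C), and Alb made up 52.4% to 85.3% of the hepatocyte sum.

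Fth1, the heavy chain of ferritin, which oxidizes iron as it is stored, was highest without CID755673. It lies at chr19:9957911-9962462 on the plus strand. Its FPKM was 1374 and 1466 in DMSO, 1423 and 1553 in 5C, 1483 and 1926 in 5C-G, 1322 and 1340 in 5C-E, 2792 and 2921 in 5C-C, and 2124 and 1632 in 5C-F. Both 5C-C libraries lay above every other library. Fth1 rose in 5C-C by 1.11 on the log2 scale against 5C (SE 0.19, adjusted p = 0.000298, edgeR), which is 2.15-fold, and by 1.10 against DMSO (SE 0.19, adjusted p = 0.000253, edgeR). Scaling by library totals alone gave 0.94 against 5C, limma on log2(FPKM + 1) also gave 0.94 and the offset for GC content and length gave 0.84, each with an adjusted p under 0.05 and short of the fold threshold. The offset gave 0.90 against DMSO (adjusted p = 0.00354), which ended that call too. The difference in 5C-F was 0.44 (adjusted p = 0.138) and in 5C-G 0.34 (adjusted p = 0.193). In the order 5C-C, 5C-F, 5C-G, 5C, DMSO and 5C-E, the step from 5C-C to 5C-F passed, at 0.67 (SE 0.19, adjusted p = 0.0192), and no other step did.

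Ftl1, the light chain, which helps the iron core form, was highest without GSK429286A. It lies at chr7:45107367-45109308 on the minus strand. Its FPKM was 416 and 418 in DMSO, 268 and 299 in 5C, 610 and 802 in 5C-G, 215 and 303 in 5C-E, 438 and 617 in 5C-C, and 479 and 522 in 5C-F. Both 5C libraries lay below both DMSO libraries, and the libraries of 5C-G, 5C-C and 5C-F lay above DMSO. Against 5C, Ftl1 rose in 5C-G by 1.46 (SE 0.22, adjusted p = 0.000201, edgeR), which is 2.76-fold, and in 5C-C by 1.06 (SE 0.22, adjusted p = 0.00134, edgeR). In 5C-F the difference was 0.92 (SE 0.22, adjusted p = 0.0161), short of the fold threshold, and the adjusted p ranged from 0.0509 to 0.154 with 1 library left out. In 5C against DMSO it was -0.63 (95% interval from -1.09 to -0.17, adjusted p = 0.116). No neighbours in the order 5C-G, 5C-C, 5C-F, DMSO, 5C and 5C-E passed the adjusted p.

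The rise of Ftl1 depended on the processing more in 5C-C than in 5C-G. With the offset for GC content and length, for a gene whose transcripts have a median of 58.1% GC, the difference was 0.81 in 5C-G (adjusted p = 0.00357) and 0.14 in 5C-C (adjusted p = 0.624). In 5C-C it was 0.97 without 5C replicate A and 0.76 without 5C-C replicate B, both with an adjusted p under 0.05 and short of the fold threshold. The same held in 5C-C with scaling by library totals alone (0.90) and with limma on log2(FPKM + 1) (0.87) or log2(FPKM + 0.1) (0.88). The macrophage markers, genes of a cell type that takes up red blood cells and stores their iron, were called higher in 8 of 10 cases in 5C-G and in 5C-F, 5 of 10 in 5C-C and 0 of 10 in 5C-E, all against 5C, and lower in 8 of 10 in 5C against DMSO. Their part in the level of Ftl1 was not tested.

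The chains did not keep one proportion. The ratio of Fth1 to Ftl1 FPKM was 3.30 and 3.51 in DMSO, 5.31 and 5.19 in 5C, 2.43 and 2.40 in 5C-G, 6.15 and 4.42 in 5C-E, 6.37 and 4.73 in 5C-C, and 4.43 and 3.13 in 5C-F. The pair of 5C-G libraries had the lowest ratios of the series, and both DMSO libraries lay below both 5C libraries. The gene length behind the FPKM of Fth1 was 3475 bases, beside 929 for its canonical GENCODE transcript, and that of Ftl1 was 1342 beside 969, so the size of the ratio rests on the authors' lengths. Its differences between groups were not tested, and the offset for GC content and length moved the chains unequally. Against 5C, Fth1 went from 1.11 to 0.84 and Ftl1 from 1.06 to 0.14 in 5C-C. In 5C-G, Fth1 went from 0.34 to 0.16 and Ftl1 from 1.46 to 0.81. Of the ferritin copies listed, Ftl1-ps1 had a mean FPKM of 4.14 in 5C, 5.53 in 5C-E, 6.83 in DMSO, 6.88 in 5C-F, 8.47 in 5C-C and 14.1 in 5C-G. Like Ftl1 it was highest in 5C-G, and how reads were split between it and Ftl1 is uncertain. Ftl1-ps2, Ftl2 and Fth-ps2 were below 1 FPKM in every library.

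Slc40a1, which encodes ferroportin, the exporter that hepcidin controls, was scarce in all libraries and lowest without CID755673. It lies at chr1:45947211-45965683 on the minus strand. Its FPKM was 0.98 and 0.78 in DMSO, 1.86 and 1.52 in 5C, 0.95 and 0.72 in 5C-G, 1.57 and 1.36 in 5C-E, 0.68 and 0.46 in 5C-C, and 2.07 and 1.64 in 5C-F. Both libraries of 5C, 5C-E and 5C-F lay above all libraries of DMSO, 5C-G and 5C-C. Against 5C, Slc40a1 fell by 1.41 in 5C-C (SE 0.27, adjusted p = 0.000760, edgeR), and the difference in 5C-G was -0.88 (SE 0.27, adjusted p = 0.0217), short of the fold threshold. With the offset for GC content and length these were -0.54 (adjusted p = 0.107) and -0.29 (adjusted p = 0.427). In 5C-C the difference was -0.78 with limma on log2(FPKM + 1), short of the fold threshold, and in 5C-G the adjusted p was 0.159 without 5C replicate A and 0.147 without 5C-G replicate B, while the difference was called with library totals alone (-1.01) and without 5C replicate B (-1.05). In 5C against DMSO the difference was 0.86 (95% interval from 0.30 to 1.42, adjusted p = 0.0685).

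Slc40a1 was called higher in 5C-F than in DMSO, by 1.10 (SE 0.27, adjusted p = 0.0108, edgeR), but not without DMSO replicate A (1.29, adjusted p = 0.0559), DMSO replicate B (0.95, adjusted p = 0.140) or 5C-F replicate A (0.88, adjusted p = 0.0924). The difference was also not called with limma on log2(FPKM + 1) or log2(FPKM + 0.1). Macrophages of the intact liver express Slc40a1 strongly. Between 5C-G and DMSO, the groups with the highest macrophage sums, it differed by -0.02 (95% interval from -0.59 to 0.54), and their part in its level was not tested. No neighbours in the order 5C-F, 5C, 5C-E, DMSO, 5C-G and 5C-C passed the adjusted p.

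Cp, which encodes ceruloplasmin, the plasma ferroxidase that lets exported iron load onto transferrin, was lowest without GSK429286A. It lies at chr3:20011090-20063930 on the plus strand. Its FPKM was 109 and 107 in DMSO, 160 and 139 in 5C, 40.4 and 44.5 in 5C-G, 113 and 97.7 in 5C-E, 131 and 83.3 in 5C-C, and 192 and 178 in 5C-F. Both 5C-G libraries lay below every other library, and both 5C-F libraries were the highest. Against 5C, Cp fell by 1.67 in 5C-G (SE 0.20, adjusted p = 1.55e-05, edgeR), and it was also called lower than in DMSO, at -1.28 (SE 0.19, adjusted p = 0.000823, edgeR). In 5C-E against 5C the difference was -0.57 (adjusted p = 0.144) and in 5C-F 0.41 (adjusted p = 0.184). In the order 5C-F, 5C, DMSO, 5C-C, 5C-E and 5C-G, only the last step passed, at 1.10 (SE 0.19, adjusted p = 0.000928).

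The transcripts of Cp have a median of 42.0% GC, and the offset for GC content and length moved the values of Cp. In 5C-G the difference became -0.90 against 5C (adjusted p = 0.00399) and -0.61 against DMSO (adjusted p = 0.0681). In 5C-C against 5C it turned from -0.32 to 0.73 (adjusted p = 0.0145). In 5C-F it became 0.94 (adjusted p = 0.00685).

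**Figure D4:**
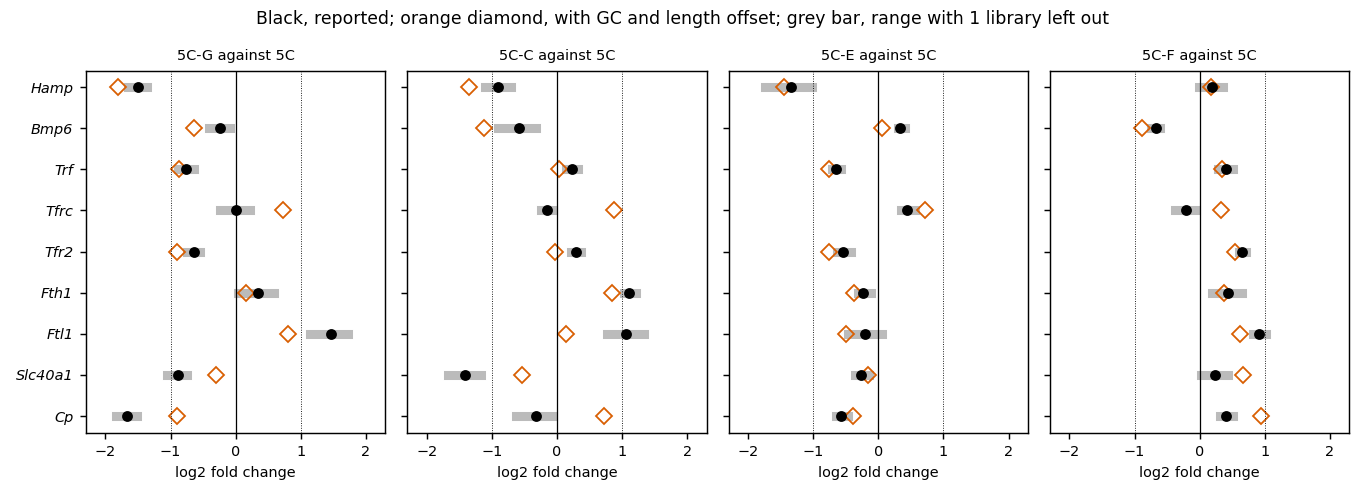
Log2 fold change of each gene in the 4 comparisons with 5C, as reported (black), with an offset for GC content and gene length (orange diamonds), and over the fits that left out 1 library (grey bars, lowest to highest). The fall of Hamp in 5C-G was -1.50 as reported and -1.80 with the offset, while Ftl1 in 5C-C moved from 1.06 to 0.14 and Tfrc in 5C-C from -0.15 to 0.88.

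Against DMSO, the removal cocktails gave few calls. There were 2 members called in 5C-G (Hamp and Cp, 5.83% of all genes being called), 1 in 5C-C (Fth1, 22.1%), 0 in 5C-E by edgeR and by DESeq2 (6.09%, with 6 members at an unadjusted p under 0.05) and 1 in 5C-F (Slc40a1, 7.4%). By adjusted p under 0.05 alone, 5 members passed in 5C-G (14.5% of all genes), 4 in 5C-E (8.62%), 1 in 5C-C (37.1%) and 3 in 5C-F (14.5%). Those short of the fold were Ftl1 at 0.84 (adjusted p = 0.0205, edgeR), Trf at -0.78 and Tfr2 at -0.61 in 5C-G. In 5C-E they were Hamp at -0.89, Ftl1 at -0.83, Trf at -0.68 and Bmp6 at 0.67, and in 5C-F Cp at 0.80 and Tfr2 at 0.69. With 1 library left out these counts ranged from 1 to 5 in 5C-G, 0 to 2 in 5C-E, 1 to 3 in 5C-C and 0 to 2 in 5C-F. Over the settings that kept all libraries they ranged from 3 to 5 in 5C-G, 2 to 5 in 5C-E and 3 to 5 in 5C-F, and in 5C-C the count was 5 with the offset for GC content and length and 1 with the others. These comparisons share the DMSO libraries.

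The cocktail without Salidroside had 1 library, so its values carry no replicate check. All 9 members lay outside the range of the 5C pair in FPKM, as did 75.8% of all genes tested. The log2 ratio of scaled CPM to the 5C mean ran from -0.52 for Slc40a1 (1.19 FPKM) to 0.36 for Fth1 (1931 FPKM), beside a median over all genes of 0.01. Cp was at -0.50, Hamp at -0.41 (48.1 FPKM), Tfrc at -0.40 and Ftl1 at 0.30. The ratios of Tfr2, Trf and Bmp6 were -0.14, -0.11 and 0.09.

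Among the wider iron and heme genes, those for uptake and reduction held calls in 4 of the 5 comparisons. The calls of list and marker genes, here and above, come from the reported fit alone and were not refitted under other settings. Steap4, a metalloreductase, had a mean of 68.6 FPKM in DMSO, 170 in 5C, 38.3 in 5C-G and 29.8 in 5C-C. It was called higher in 5C against DMSO at 1.23 and lower against 5C in 5C-G (-2.04) and 5C-C (-2.35). Heph, a membrane ferroxidase related to ceruloplasmin, was called higher in 5C against DMSO at 1.86 and lower against 5C in 5C-G (-2.51), 5C-C (-2.01) and 5C-F (-1.52), at a mean of at most 1.58 FPKM in these groups. Cybrd1, a ferric reductase, was called lower against 5C in 5C-G (-1.19), 5C-C (-1.60) and 5C-F (-1.39). Steap3, an endosomal ferrireductase, was called lower in 5C against DMSO (-1.44) and higher against 5C in 5C-G (1.54) and 5C-F (1.10), and Steap1 was called higher in 5C-C (1.25). Of the 9 genes of this list the count called was 3 in 5C against DMSO (4.55% of all genes called), 4 in 5C-G (13.1%), 0 in 5C-E (1.96%), 5 in 5C-C (20.2%) and 3 in 5C-F (4.84%). In 5C-E the values ran from -0.99 to 0.61.

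The genes that take up, export and break down heme were mostly higher than in 5C where they were called. In 5C-G, where 13.1% of all genes were called, 4 of 11 were called higher and 0 lower, with a median of 0.40. Blvrb (1.69), Hmox1 (1.46), which opens the heme ring and frees its iron, Cd163 (1.42), a macrophage receptor for hemoglobin, and Blvra (1.23) were those called. Hmox1 had a mean of 154 FPKM in 5C-G, 106 in DMSO and 61.4 in 5C. The macrophage markers were called higher in 8 of 10 cases in 5C-G, with a median of 3.47. They were called lower in 8 of 10 in 5C against DMSO (4.55% of all genes called), with a median of -3.01. Their summed FPKM had the same order over these 3 groups as Hmox1. Over the other groups the order differed. Hmox1 had a mean of 65.9 FPKM in 5C-F, 68.8 in 5C-C and 69.6 in 5C-E. The macrophage sums there were 864 to 1126, 648 to 1108 and 394 to 501. The part of the macrophage markers in the levels of the heme genes was not tested. In 5C-C, 5 of the 10 markers were called higher, and 20.2% of all genes were called. Blvrb (1.44), Hpx (1.28), the plasma heme carrier, and Lcn2 (1.10), which binds bacterial iron carriers, were among 4 heme genes called higher there. Flvcr1, a heme exporter, was called lower at -1.53. In 5C against DMSO (4.55% of all genes called), Cd163 was called lower at -2.28 and Lcn2 higher at 1.02. In 5C-E (1.96%), Hp, which binds hemoglobin, was called lower at -1.03. None was called in 5C-F (-0.32 to 0.86, 4 with an adjusted p under 0.05).

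Of the genes that use or sense iron inside the cell, most calls fell in 5C-C, where calls were also most frequent over all genes (20.2%). Ireb2, which encodes iron regulatory protein 2, was called lower there at -1.51, and Ncoa4, which brings ferritin to the lysosome, was called lower in 5C-C at -1.47 and in 5C-G at -1.12. No other gene of that list of 6 was called in the 5 comparisons. In heme synthesis, Urod (1.07) and Alad (1.06) were called higher in 5C-C and none of 8 was called in the other 4 comparisons, where values ran from -0.68 to 0.85. In the list of mitochondrial iron and iron-sulfur cluster genes, 3 of 7 tested were called in 5C-C, 2 higher and 1 lower, and none in the other 4 comparisons. The called gene with the smallest change there was Slc25a28, a mitochondrial iron importer, at 1.06. Over that list the values in 5C-C ran from -1.45 to 1.20.

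**Figure D5:**
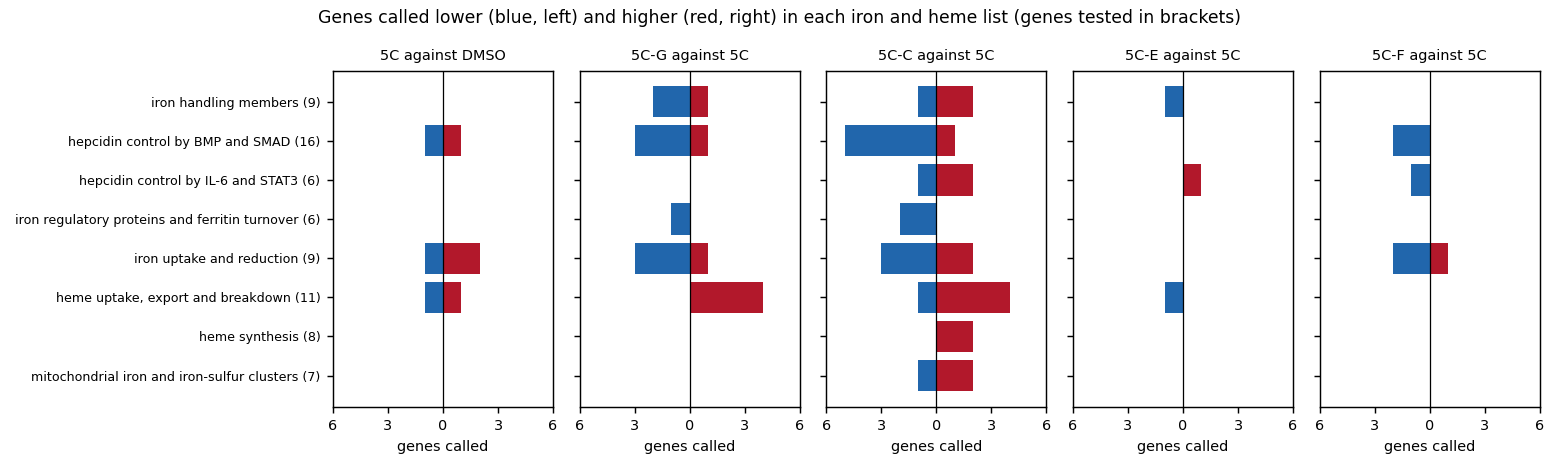
Number of genes called lower (blue, to the left) and higher (red, to the right) among the 9 members and in each list of iron and heme genes, with the number tested in brackets, in the 5 comparisons. Calls were most frequent in 5C-C against 5C, where 5 of 16 BMP and SMAD genes were lower and 4 of 11 heme genes higher, as 20.2% of all genes were called there.

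Over the 13 libraries, the genes most like each member by Pearson r of log2 CPM were described, with no test, since libraries share groups and depth. Cp was most like Nrk (0.99), Slc34a2 (0.96) and Slc25a48 (0.96). Ftl1 was most like Atp6v0d1 (0.98), a subunit of the proton pump of lysosomes, Mfsd5 (0.97) and Tubb4b (0.96). Fth1 was most like Eif3f (0.98), Rplp1 (0.97) and Rps16 (0.97), which encode a translation initiation factor subunit and ribosomal proteins. Hamp was most like Hrg (0.94), a plasma glycoprotein made in the liver, Cxcl13 (0.94) and Apon (0.94). Tfr2 was most like Habp2 (0.95), Kng1 (0.94) and Selenbp1 (0.94), and Trf like Cd74 (0.94), Kng1 (0.93) and Cacna2d3 (0.93). For Bmp6 they were Sspn (0.96), Sec61a2 (0.94) and Pcdh18 (0.94), for Slc40a1 Pkp4 (0.93), Spock3 (0.93) and Entpd5 (0.92), and for Tfrc Zfp9 (0.91), Plekha2 (0.89) and Uggt1 (0.89). Between members, r was 0.65 for the ferritin chains, 0.84 for Trf and Cp, -0.37 for Hamp and Bmp6, and 0.48 for Hamp and Slc40a1.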

How the data were processed

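RNA of dHeps was sequenced as paired-end libraries on a NovaSeq instrument and aligned to GRCm39. The submitters' processing notes name featureCounts, Subread and DESeq2, and the annotation release and the use of strand are not given in the sources used here. The authors deposited raw counts per gene and FPKM per gene, in which each value is the count scaled by gene length and library total, as read from the values (1 length within 0.2% for 27140 of 27141 genes). Column names give the group but not the labelled replicate. There were 0 unused columns of sample values.

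From the counts, edgeR 4.0.16 in R 4.3.3 was fitted on all 13 libraries with a mean per group, TMM factors and filterByExpr (minimum count 10), leaving 6 residual degrees of freedom. The alternatives were DESeq2 1.42.0, limma 3.58.1 on log2(FPKM + 1) or log2(FPKM + 0.1) for genes at 1 FPKM in 2 libraries, library totals alone, every gene kept, only the groups compared, no fold threshold, a GC and length offset, and each library left out. The model was tested on simulated data. The 9 members, the pathway and marker lists and the tests were chosen with earlier results of these data known. All members were tested in every comparison, though not every fold change is printed. Of each list up to 4 called genes are named, in most cases those with the largest change. Ftmt and Clec4g were not in the tables. Hjv was matched by its Ensembl identifier. GENCODE M39 gave coordinates, transcripts and GC content, the last as the median over the transcripts of a gene. The length in the offset was the one behind the FPKM. Some items are not reported here.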

Additional observations from a re-analysis of the deposited data

How the results depend on the processing

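The genes of the pathway and marker lists were not refitted. For the members, every comparison was refitted under the alternatives, those of the removal cocktails against DMSO being added after the data were seen. The number of members called stayed at 0 in 5C against DMSO under all of them, at 0 in 5C-F against 5C under all but the removal of the fold threshold, and at 1 in 5C-C against DMSO under all of them, although with the GC and length offset that member was no longer Fth1 (0.90). Without the fold threshold the count was 6 in 5C-G, 2 in 5C-E, 5 in 5C-C and 3 in 5C-F against 5C, and 5, 4 and 3 in 5C-G, 5C-E and 5C-F against DMSO. With the GC and length offset it was 1 in 5C-G against 5C, and 1, 2 and 2 in 5C-G, 5C-E and 5C-F against DMSO. With limma on log2(FPKM + 1) it was 1 in 5C-C against 5C and 0 in 5C-F against DMSO, and with limma on log2(FPKM + 0.1) 0 in 5C-F against DMSO. With 1 library left out it ranged from 3 to 4 in 5C-G, 0 to 1 in 5C-E and 2 to 3 in 5C-C against 5C, and from 1 to 2 in 5C-G, 0 to 1 in 5C-E and 0 to 1 in 5C-F against DMSO.

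Of 539 refitted fold changes of single members, 477 kept direction and call, 27 lost the call, 8 gained it and 27 changed sign. Those that changed sign were not called. In 5C against DMSO, Trf became 0.048 with library totals only, 0.0476 with limma at either pseudocount and 0.0078 with the GC and length offset, and ranged from -0.064 to 0.014 with 1 library left out. Fth1 became 0.068 with library totals only, 0.0674 and 0.0675 with limma at pseudocounts 1 and 0.1, 0.056 with the offset and 0.0062 with every gene kept, and ranged from -0.085 to 0.073 with 1 library left out. Tfr2 ranged from -0.035 to 0.13 in the same way. In 5C-G against 5C, Tfrc became -0.11 with library totals only, -0.0063 with DESeq2, -0.046 with every gene kept and -0.13 and -0.14 with limma at pseudocounts 1 and 0.1, and ranged from -0.24 to 0.23. With the offset, Cp, Tfr2 and Tfrc became 0.73, -0.029 and 0.88 in 5C-C and Tfrc 0.33 in 5C-F, all against 5C. With 1 library left out, Ftl1 ranged from -0.47 to 0.054 in 5C-E and Hamp from -0.013 to 0.36 in 5C-F, both against 5C. The causes were not tested.

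Library totals alone moved the median gene by -0.14 in 5C-G, -0.15 in 5C-C and -0.11 in 5C-F against 5C. No paired analysis was possible because the labels give no replicate number that all groups share, and the running numbers of the columns could not be matched to the labels. With 2 libraries a group, 1 library can decide a call.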
